A study of Mus musculus with 6 samples.

Results

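Genes of the lysosome were examined in the retina of wild-type C57BL6/J mice, with emphasis on its hydrolases and on the genes of the neuronal ceroid lipofuscinoses. The set was chosen by symbol from a list of 36 names, of which 35 had a row among the 15465 genes of the deposited tables. Tfeb was the name without a row, and a row under its older symbol Tcfeb (a RefSeq synonym) is described separately and is not counted among the 35. The members were grouped as 8 proteases, 14 glycosidases, lipases, sulfatases and their activator Psap, 6 genes of the lysosomal membrane and of sterol transport, and 7 lipofuscinosis genes.

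The study sequenced RNA of isolated retinas, and the 6 samples used here form 1 group. By their titles, 3 biological replicates were each run as 2 technical replicates, which share 1 column of values. Every library pooled 5 mice, so a replicate is a pool and n = 3 throughout. The source names number the samples in another way, which would mix the sources of the 3 columns, and every SD below rests on the titles. Values are RPKM, reads per kilobase of transcript relative to library size, so that levels of different genes are compared per length. The values summed to between 249532 and 302634 RPKM per replicate, and the number of reads is unknown. Rod markers of the retina were high, with 10 of 10 above the median gene and Gnat1, the rod transducin alpha subunit, at 5103 ± 332 RPKM (SD, n = 3).

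The lysosome is the acidic compartment in which cells break down protein, glycans and lipids delivered by endocytosis, phagocytosis and autophagy. Its soluble enzymes are made in the endoplasmic reticulum, tagged with mannose 6-phosphate and sorted by receptors, while a proton pump keeps the lumen acid. Loss of single hydrolases causes lysosomal storage diseases, and the neuronal ceroid lipofuscinoses are a group of them in which autofluorescent lipofuscin builds up in neurons and in which vision is commonly lost. In the eye the pigment epithelium next to the retina digests shed photoreceptor outer segments in its lysosomes.

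All 35 members had 1 RPKM or more in every replicate, against 77.5% of all genes. Their median was 17.6 ± 1.74 RPKM (SD, n = 3), against 6.09 ± 0.396 RPKM for all genes, and 18 of the 35 (51.4%) lay above the upper quartile of all genes, a mean of 16.2 RPKM. Levels spanned from Psap, with 309 ± 50.2 RPKM and rank 62 of 15465 genes, to Gla, with 2.44 ± 0.627 RPKM and rank 10722. Together the members held 0.493% ± 0.0304 of the summed RPKM. The 5 highest of them, Psap, Ctsd, Lamp1, Ctsf and Ctsl, took 57.7% ± 1.22 of the members' sum.

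**Figure D1:**
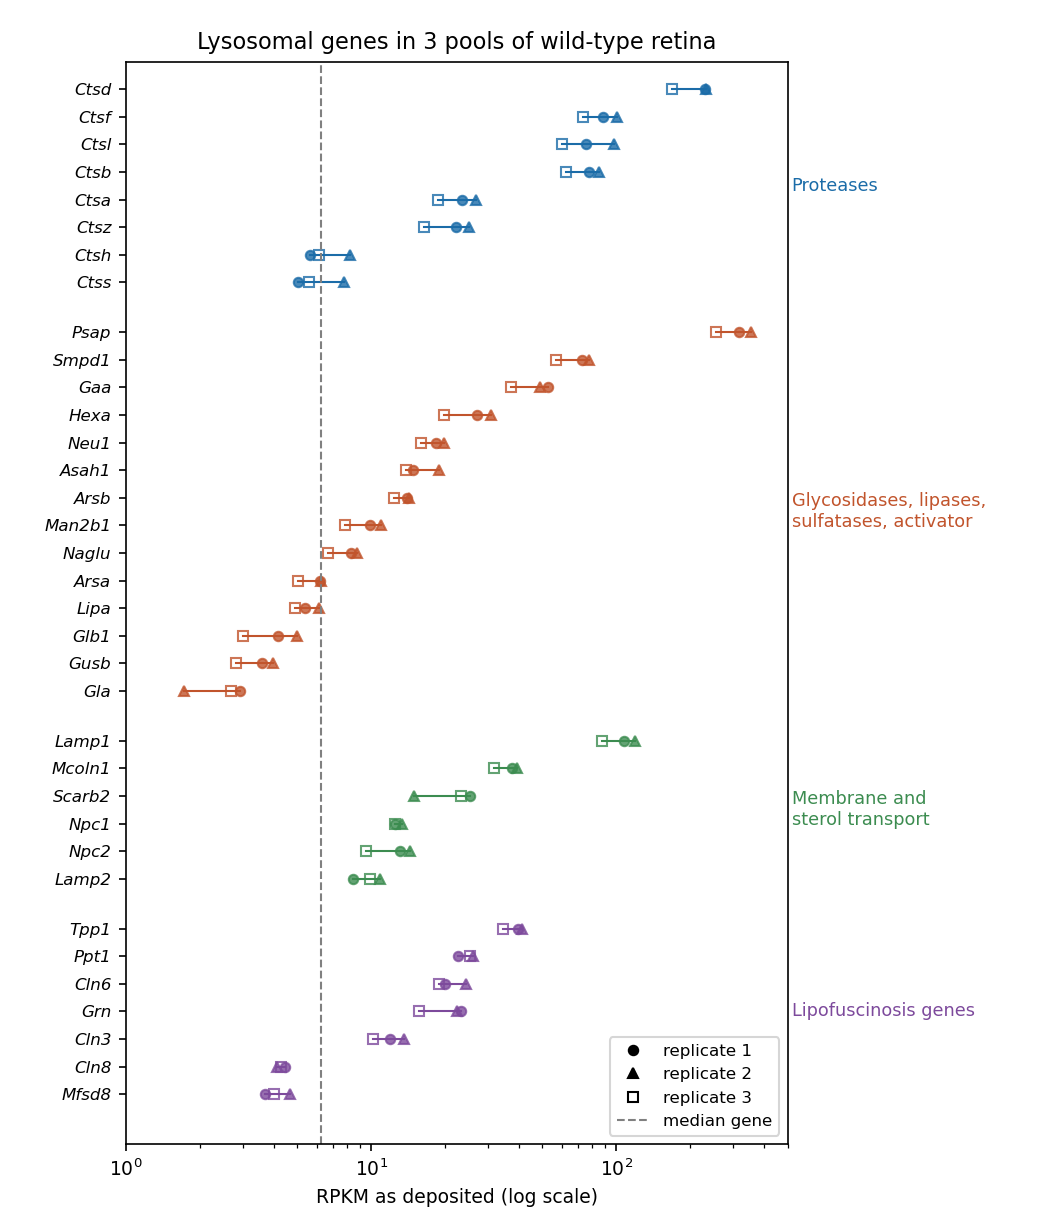
RPKM as deposited of each of the 35 genes in replicates 1 (circles), 2 (triangles) and 3 (open squares) on a log axis, grouped by role, with a dashed line at the mean RPKM of the median gene. Psap, Ctsd and Lamp1 lie above 80 RPKM in every replicate. Of the 35 genes, 26 have their lowest deposited value in replicate 3, as have 54.6% of all genes that averaged at least 1 RPKM.

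Proteases were the highest of the 4 groups, with a median of 48.1 ± 8.28 RPKM over 8 genes (SD, n = 3). Ctsd, the aspartic protease cathepsin D, had 230, 233 and 169 RPKM in replicates 1, 2 and 3, a mean of 210 ± 36.4. The cysteine cathepsins followed. Ctsf had 88.5, 101 and 73.0 RPKM, Ctsl had 74.96, 98.4 and 59.9 RPKM, and Ctsb had 77.5, 84.8 and 62.7 RPKM. These 4 genes were lowest in replicate 3, and the ranges of Ctsf, Ctsl and Ctsb overlapped. Before scaling between replicates, 54.6% of all genes that averaged at least 1 RPKM were lowest in replicate 3 too. Among the 8 genes Ctsd took 41.5% ± 1.93 of the RPKM, and Ctsf (17.3% ± 0.481), Ctsl (15.2% ± 1.41) and Ctsb (14.8% ± 0.392) took similar shares.

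The log2 ratio of Ctsd to Ctsb was 1.48 ± 0.075 (SD, n = 3), a factor of 2.8, and Ctsd was the higher in 3 of 3 replicates. Ctsb and Ctsl could not be told apart, with a log2 ratio of -0.034 ± 0.16 and Ctsb the higher in 2 of 3 replicates. With 3 replicates the smallest two-sided p of an exact sign-flip test is 0.25, and this limit holds for all 9 ratios computed. Both ratios depend on transcript length. When RPKM was multiplied by length, Ctsd over Ctsb became 0.33 and Ctsb over Ctsl became 1.23 on the log2 scale. The product only approximates a share of reads, because lengths are medians over GENCODE M21 transcripts and those behind the deposited values are unknown. The level of Ctsb is less certain, because 12.8% of its exon bases in GENCODE M21 overlap Fdft1 on the opposite strand (18.2 RPKM), and whether strand was used in counting is not given in the sources used here.

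Ctsa, the protective protein that stabilises the sialidase and the beta-galactosidase, had 23.1 ± 4.03 RPKM, and Ctsz, a carboxypeptidase, had 21.2 ± 4.38 RPKM (SD, n = 3). Of the exon bases of Ctsa, 10.5% overlap Pltp (22.2 RPKM) and 6.87% overlap Neurl2. Ctsh, an aminopeptidase, and Ctss, the cathepsin of antigen-presenting cells, were the lowest proteases, near the median gene. Ctsh had 5.65, 8.21 and 6.12 RPKM and Ctss had 5.04, 7.77 and 5.57 RPKM in replicates 1, 2 and 3. Unlike the other 6 proteases, both were lowest in replicate 1, as were 29.9% of all genes that averaged at least 1 RPKM after scaling between replicates. The 10 microglia markers summed to 28.1, 34.2 and 23.6 RPKM in these replicates, with 7 of 10 at a mean of 1 RPKM or more and none at 0. Their part in the level of Ctss was not tested. In bulk tissue, fewer cells of a type and less RNA per cell cannot be told apart.

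Cathepsins have inhibitors, the cystatins, and other lysosomal peptidases beside them. Cst3, the secreted inhibitor cystatin C, had 1143 ± 211 RPKM and exceeded the sum of the 6 cysteine cathepsins in 3 of 3 replicates, by a log2 difference of 2.06 ± 0.015 (SD, n = 3) or a factor of 4.17. The factor was close to the same in every pool although the levels of both sides moved. Multiplied by transcript length, the difference was 0.42 on the log2 scale. Cstb, the cytosolic cystatin B, had 10.9 ± 1.27 RPKM and Cst6 had 0.217 RPKM. Among 7 other proteases with a row the median was 4.72 ± 0.82 RPKM. The highest was Lgmn, legumain, an asparaginyl endopeptidase that processes cathepsins, with 85.9 ± 13.3 RPKM, a level near that of Ctsf, followed by Dpp7 (18.2 ± 3.28) and Scpep1 (5.65 ± 1.2).

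Glycosidases, lipases and sulfatases had a median of 11.6 ± 1.3 RPKM over 14 genes (SD, n = 3), with a wide range among them. Psap, the precursor of the saposins that present sphingolipids to their hydrolases, had 316, 356 and 256 RPKM in replicates 1, 2 and 3 and took 57.6% ± 0.791 of the group's RPKM. Smpd1, the acid sphingomyelinase, had 72.5, 77.4 and 56.8 RPKM. Gaa, the acid alpha-glucosidase that degrades glycogen, had 52.6, 48.8 and 37.1 RPKM. Each of these 3 had its lowest deposited value in replicate 3, as had 54.6% of all genes that averaged at least 1 RPKM. The activator Psap stood far above the second activator measured, Gm2a, by 5.30 ± 0.070 on the log2 scale, a factor of 39.3, and by 4.66 on that scale when length was multiplied back.

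The next genes were Hexa (25.9 ± 5.63 RPKM), the alpha subunit of beta-hexosaminidase, Neu1 (18.1 ± 1.93), the sialidase, Asah1 (15.8 ± 2.7), the acid ceramidase, and Arsb (13.5 ± 1.03), a sulfatase of dermatan sulfate. Hexa had 27.1, 30.9 and 19.8 RPKM in replicates 1, 2 and 3, lowest in replicate 3 like most of the group. Of the exon bases of Hexa, 12.8% overlap Tmem202, which was low itself (0.5 RPKM).

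The remaining 7 hydrolases stayed under 10 RPKM. They were Man2b1 (9.56 ± 1.58 RPKM), the alpha-mannosidase, Naglu (7.91 ± 1.08), a heparan sulfate glucosaminidase, Arsa (5.82 ± 0.691), the sulfatide sulfatase, Lipa (5.46 ± 0.634), the acid lipase of cholesteryl esters, Glb1 (4.06 ± 0.991), the beta-galactosidase, Gusb (3.45 ± 0.59), the beta-glucuronidase, and Gla (2.44 ± 0.627), the alpha-galactosidase. The replicate ranges of neighbours in this order overlapped, except those of Naglu and Arsa. Gla had 2.91, 1.73 and 2.69 RPKM and was the member of this group with the widest log2 spread, low in replicate 2. Of the exon bases of Glb1, 5.49% are shared with Tmppe (1.25 RPKM). The other 21 hydrolases and helpers with a row had a median of 8.04 ± 0.582 RPKM.

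Genes of the lysosomal membrane and of sterol transport had a median of 17.3 ± 2.35 RPKM over 6 genes (SD, n = 3). Lamp1, an abundant glycoprotein of the membrane, had 108, 120 and 87.7 RPKM in replicates 1, 2 and 3. Its paralog Lamp2 had 8.43, 10.9 and 9.89 RPKM. Lamp1 took 91.4% ± 1.45 of the pair and exceeded Lamp2 by 3.43 ± 0.27 on the log2 scale, a factor of 10.8, and the ranges were far apart. Of the exon bases of Lamp1, 9.31% overlap Grtp1 on the opposite strand, whose row had 101 RPKM, and without strand the reads of the shared bases cannot be told apart.

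Mcoln1, the mucolipin cation channel, had 37.5, 39.3 and 31.6 RPKM, with a small spread. Npc1, the membrane sterol transporter, had 12.8 ± 0.471 RPKM, and Npc2, the soluble protein that hands cholesterol to it, had 12.4 ± 2.53 RPKM. The pair stood at 0.069 ± 0.28 on the log2 scale, with Npc1 the higher in 1 of 3 replicates, and the difference turned to -0.093 without replicate 3 and was 0.73 when length was multiplied back. Scarb2, a membrane protein that carries enzyme to the lysosome, had 25.3, 14.9 and 23.3 RPKM in replicates 1, 2 and 3. Replicate 2 was low and did not reach either of the other pools.

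The median of the 7 lipofuscinosis genes was 19.4 ± 3.47 RPKM (SD, n = 3). Tpp1, a tripeptidyl peptidase, led them with 39.7, 41.3 and 34.6 RPKM in replicates 1, 2 and 3. Ppt1, the palmitoyl-protein thioesterase, had 22.5, 26.1 and 25.3 RPKM, and Cln6, an endoplasmic reticulum membrane protein that helps export of lysosomal enzymes, had 20.1, 24.3 and 18.9 RPKM. The ranges of Ppt1 and Cln6 overlapped, and Tpp1 lay above both. Grn, progranulin, had 20.5 ± 4.2 RPKM and Cln3, a lysosomal membrane protein, 11.9 ± 1.71 RPKM. Cln8, the partner of Cln6 in enzyme export, had 4.29 ± 0.17 RPKM and Mfsd8, a lysosomal membrane transport protein, 4.12 ± 0.511 RPKM, and these 2 did not differ beyond their spread. Cln6 thus stood well above its partner, at 21.1 ± 2.84 RPKM.

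Ctsd and Ctsf, described with the proteases, are lipofuscinosis genes as well and were the highest of those in the set. Among further genes of this disease group, Dnajc5, a synaptic vesicle co-chaperone, had 105 ± 3.88 RPKM, and Atp13a2, a lysosomal polyamine transporter, had 59.6 ± 9.07 RPKM. Kctd7 was the lowest of these, with 6.42 ± 0.4 RPKM. The genes of this disease group therefore covered nearly the range of the whole set, from 4.12 to 210 RPKM.

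Lists of genes that serve the lysosome were set beside the members. Over 17 proton pump genes the median was 56.9 ± 7.39 RPKM (SD, n = 3), led by Atp6v0b (284 ± 65.0), Atp6v0e2 (158 ± 18.9) and Atp6v1b2 (147 ± 16.9). The lowest row of this list was Atp6v0c, with 0.01, 0.05 and 0.04 RPKM in replicates 1, 2 and 3, and the cause was not tested. The 9 genes of mannose 6-phosphate tagging and sorting had 19.9 ± 1.65 RPKM, led by Gnptg (63.0 ± 6.39), a subunit of the tagging enzyme, Gga1 (28.7 ± 3.94), a sorting adaptor, and M6pr (22.9 ± 3.15), a receptor. Of the receptors, M6pr exceeded Igf2r by 2.84 ± 0.38 on the log2 scale, a factor of 7.15, and the log2 difference was 1.02 when length was multiplied back. The 17 autophagy genes had 25.6 ± 3.3 RPKM, led by Gabarapl1 (156 ± 24.0), Sqstm1 (137 ± 30.1) and Map1lc3a (115 ± 25.1). The 13 nutrient sensing genes had 22.2 ± 1.53 RPKM, led by Rraga (75.5 ± 12.1), Flcn (74.8 ± 5.74) and Lamtor1 (50.1 ± 8.28, under its older symbol). Another 17 membrane genes had 7.7 ± 2.88 RPKM, led by Laptm4b (273 ± 37.9), Laptm4a (45.1 ± 8.68) and Tmem192 (25.3 ± 8.09). Their medians were 4.43, 9.86 and 8.81 RPKM in replicates 1, 2 and 3, and that of replicate 2 was the Tmem175 row (2.55, 9.86 and 2.58). The symbols of Tmem192, Tmem175 and Atp6v0e2 equal another symbol followed by a digit, a kind of row that held most genes called varying below.

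The 31 proteasome genes, the other main route of protein breakdown, had a median of 34.5 ± 4.58 RPKM against 17.6 ± 1.74 RPKM for the lysosomal members, led by Psmb4 (116 ± 29.8), Psmc5 (85.5 ± 15.6) and Psmd8 (80.6 ± 13.2). The lists are described side by side without a test.

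**Figure D2:**
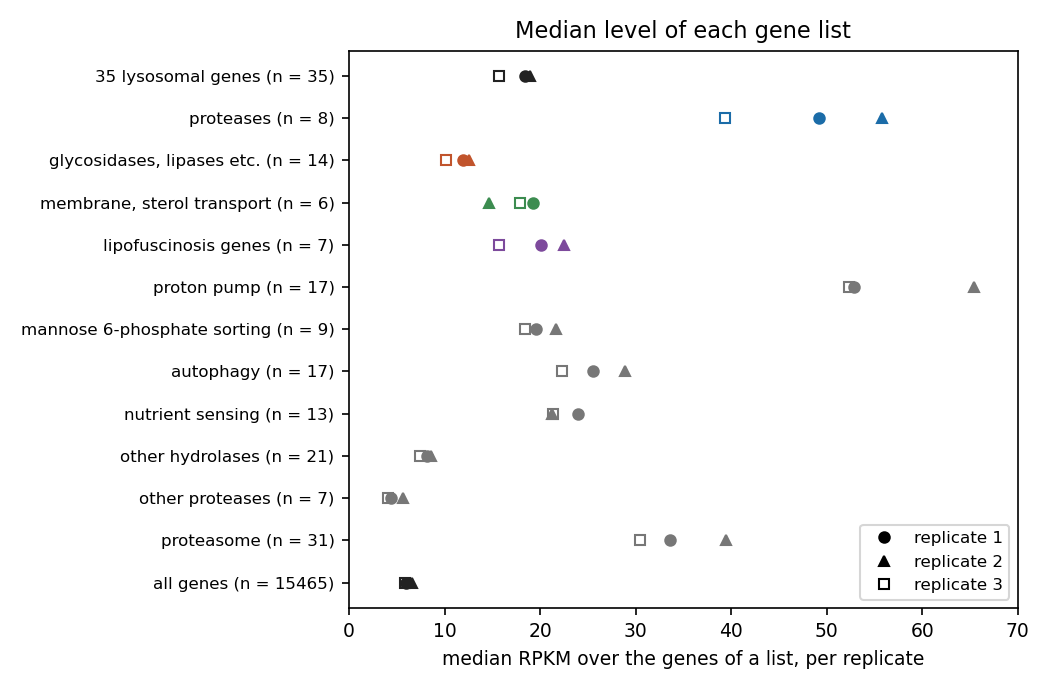
Median RPKM over the genes of each list in replicates 1 (circles), 2 (triangles) and 3 (open squares), with the number of genes that had a row. The proteases lie between 39.4 and 55.8 RPKM and the glycosidases, lipases and sulfatases between 10.1 and 12.6 RPKM, all above the 5.81 to 6.54 RPKM of all genes.

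Tfeb is a transcription factor that turns on lysosomal genes through an E-box, and Tfe3, Mitf and Tfec are its relatives. The row under Tcfeb had 5.3, 4.78 and 3.65 RPKM in replicates 1, 2 and 3. Tfe3, under its older symbol Tcfe3, had 13.1, 11.9 and 11.3 RPKM and Mitf had 1.47, 1.35 and 1.33 RPKM. Tfe3 was the highest of the 3, with 67.1% ± 1.94 of their RPKM against 25.2% ± 2.37 for Tfeb, and exceeded Tfeb by 1.41 ± 0.18 on the log2 scale (SD, n = 3).

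The promoter windows of RefSeq (build GRCm38.p6), from 250 bases before to 50 bases after each start, were searched for the E-box CACGTG and for the longer TCACGTGA, forms of the element that Tfeb binds. Both read the same on either strand, and the longer form contains the shorter. A window was found for 30 of the 35 members and for Tfeb, and Asah1, Cln8, Ctsb, Ctsh and Npc1 were not matched. CACGTG was present for 12 of 30 members (40%), against 8.09% of 27025 genes. These 27025 genes are all those with a window and include genes without a row here, whereas every member had 1 RPKM or more in every replicate. No share among genes with a row was computed. TCACGTGA was present for 5 members (16.7%), namely Ctsa, Ctsd, Gla, Mcoln1 and Cln3, against 1.12% of all genes. More than 1 CACGTG was found for 6 members (20%), against 0.681% of all genes. The members' windows were also richer in G and C, with a median of 57.2% against 52.8%, and the part of this in the shares was not tested.

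By role, CACGTG was present for 4 of 6 proteases, 5 of 13 glycosidases, lipases and sulfatases, 2 of 5 membrane genes, 1 of 6 lipofuscinosis genes, and not for Tfeb itself. The stretches that follow show the 5 members with the longer motif, in 30 bases each, and Lamp1, which had the most repeats, in 150 bases that end at the start. They run 5′ to 3′ on the strand of the gene, with CACGTG, or TCACGTGA where present, in capitals. Those of Ctsa and Cln3 belong to the second of their 2 annotated starts. Each short stretch lies in exon bases annotated in GENCODE M21, counted for any gene on either strand, and no base of the Lamp1 stretch does. Whether these exons belong to the member itself was not checked.
Ctsa, chr2:164833758-164833787, plus strand: tgTCACGTGAtgcagatgcTCACGTGAcca
Ctsd, chr7:142387908-142387937, minus strand: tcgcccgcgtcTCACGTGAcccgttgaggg
Mcoln1, chr8:3500462-3500491, plus strand: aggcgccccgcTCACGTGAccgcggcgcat
Lamp1, chr8:13159011-13159160, plus strand: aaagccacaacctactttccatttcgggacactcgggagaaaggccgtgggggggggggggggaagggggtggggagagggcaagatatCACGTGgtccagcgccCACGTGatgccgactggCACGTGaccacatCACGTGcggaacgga
Cln3, chr7:126583340-126583369, minus strand: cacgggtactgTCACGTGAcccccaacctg
Gla, chrX:134601215-134601244, minus strand: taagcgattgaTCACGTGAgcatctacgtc

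Counted from the start, with -1 as the last base before it, the copies of CACGTG in Lamp1 began at -61, -45, -28 and -15. Those of Mcoln1 began at -71 and -45 and those of Ctsd at -245 and -98. Lamp1 and Mcoln1 thus held theirs close to the start. The copies in Gla were farther away, at -227 and -194, in a window that also holds starts of the divergent gene Hnrnph2 in GENCODE M21. Ctsa had 1 copy on each side of its second start. The 12 members with CACGTG had a median of 29.6 RPKM and ranged between 2.44 for Gla and 210 for Ctsd, and the 18 without it had a median of 19.3 RPKM and ranged between 3.45 for Gusb and 309 for Psap. A match of letters is a description of the window and no evidence of binding in these retinas.

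**Figure D3:**
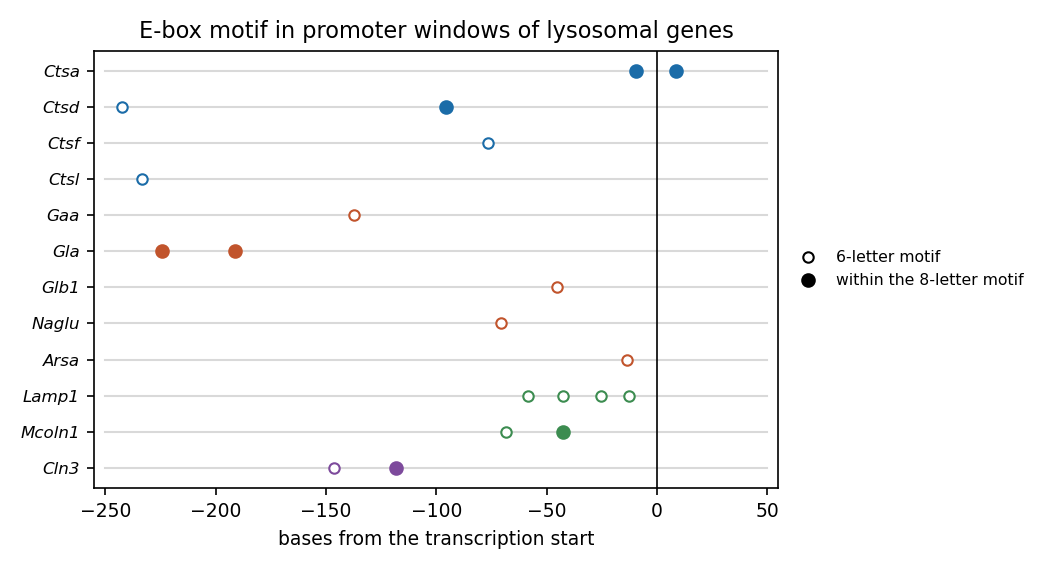
Position of CACGTG in the promoter windows of the 12 members that hold it, in bases from the transcription start (vertical line), from 250 before to 50 after it; filled circles are copies within TCACGTGA. The 4 copies of Lamp1 and the 2 of Mcoln1 lie between -71 and the start, and those of Gla begin at -227 and -194.

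The pools were then compared with each other, since a single group allows no other comparison. Each gene's variance over replicates was set against that of genes of its level, on log2(RPKM + 0.1) after scaling between replicates, for the 12562 genes that averaged at least 1 RPKM. The count of members that varied was 0 of 35 (limma F test with a robust prior, adjusted p at 0.05), against a background of 5.41% of all genes tested. At an unadjusted p under 0.05 there were 2 members, Scarb2 and Gla, or 5.71%, against 8.32% of all genes tested. With a non-robust prior 0 of 12562 genes were called, so that the setting says nothing of the members. The median SD of the members over replicates was 0.14 on the log2 scale, and that of all genes tested 0.15.

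Scarb2 deviated from its own mean by 0.32, -0.59 and 0.28 on the log2 scale in replicates 1, 2 and 3 (adjusted p = 0.144, limma). Gla had nearly the same pattern, with 0.30, -0.56 and 0.26 (adjusted p = 0.405, limma). The count of called genes, 679 in all, rested largely on rows whose symbol equals another symbol followed by a digit and any further letters, or is such a shorter symbol, and was 98 without them. No member has such a symbol. Without these rows the test called Scarb2 alone among the 35 (adjusted p = 0.0176, limma), against 0.936% of 10474 genes, while Gla stayed at 0.177. With a non-robust prior and these rows left out, 0.458% of genes and 0 members were called. Over the other settings tried the adjusted p of Scarb2 lay between 0.137 and 0.995. Replicate 2 was at least 0.8 lower than the mean of the other pools on the log2 scale, with replicates 1 and 3 within 0.25 of each other, in 29 of 10474 genes (0.277%) with such rows left out, Scarb2 and Gla among them, and in 188 of 12562 with them. This cut lies just under the differences of Scarb2 (-0.89) and Gla (-0.84), and at a cut of 0.5 the counts were 191 of 10474 (1.82%) and 400 of 12562 (3.18%). In the lists that serve the lysosome, 4 of 106 genes tested were called (limma), against 5.41% of all genes tested. They included Cd63 (0.05, 0.07 and 18.0 RPKM), Tmem175 (2.55, 9.86 and 2.58 RPKM) and Tsc2 (59.4, 21.3 and 52.3 RPKM), and of the proteasome 2 of 31, Psmd11 and Psmd14, were called, all with such symbols. With such rows left out, 0 of 98 genes of the lists and 0 of 25 proteasome genes were called, against 0.936% of all genes.

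**Figure D4:**
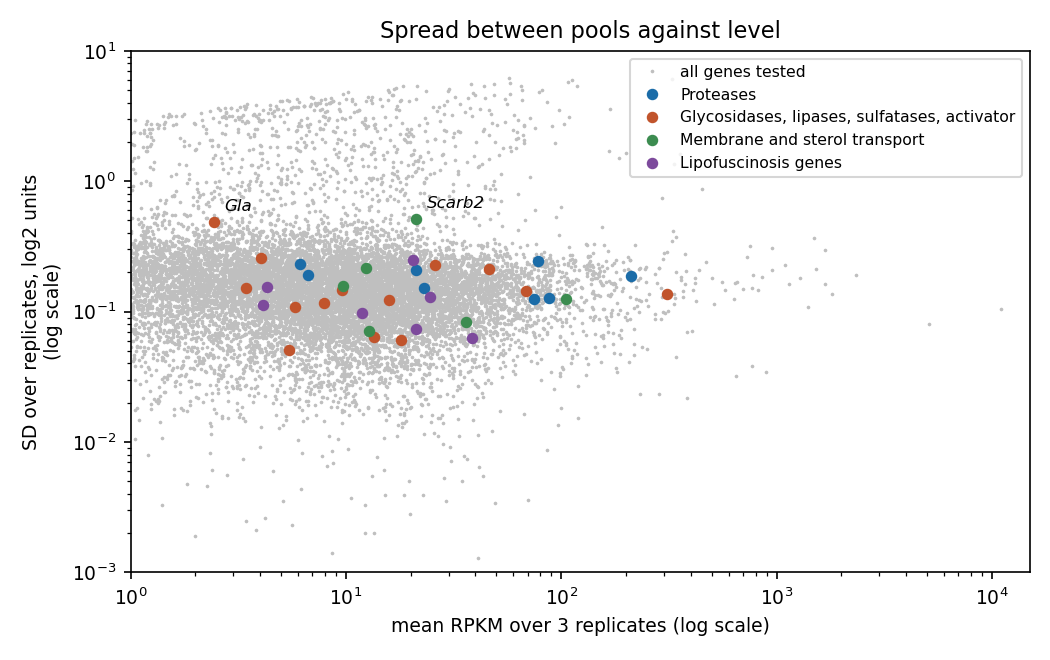
SD over the 3 replicates in log2 units against mean RPKM, both on log axes, for all 12562 genes tested (grey; 2 genes with an SD under 0.001 lie below the axis) and for the members by role (colours). Scarb2 and Gla stand above the other members, whose median is 0.14.

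Most members shared their lowest pool. After scaling, 25 of 35 members (71.4%) were lowest in replicate 3, against 35.7% of all genes tested and 44.9% of genes that averaged at least 10 RPKM. Of these 25, 14 were highest in replicate 1, such as Ctsd and Gaa, and 11 in replicate 2, such as Psap and Ctsf. Over all 35 members the median deviation from each gene's own mean was 0.073, 0.062 and -0.11 on the log2 scale in replicates 1, 2 and 3, against at most 0.0034 in each for all genes. By role, 12 of 14 glycosidases, lipases and sulfatases and 6 of 8 proteases were lowest in replicate 3, as were 3 of 6 membrane genes and 4 of 7 lipofuscinosis genes. Glb1, Hexa, Grn, Npc2, Ctsl and Ctsz were among the lowest there, with deviations between -0.29 for Glb1 and -0.24 for Ctsz. Lamp2, Ppt1 and Mfsd8 were lowest in replicate 1 instead and highest in replicate 3, with a deviation of 0.15 for Ppt1.

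**Figure D5:**
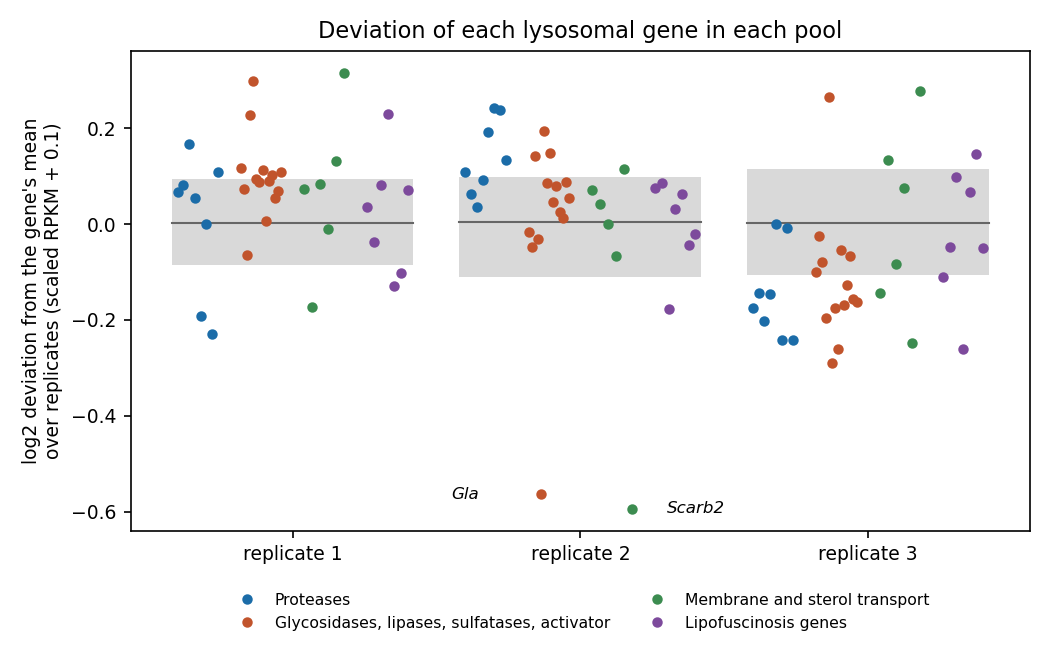
Deviation of each member from its own mean over replicates, in log2 units after scaling, in each of the 3 replicates and coloured by role; grey bands are the quartiles of all genes tested, with their median as a line. In replicate 3 most proteases and glycosidases lie below the band, and Scarb2 and Gla lie near -0.6 in replicate 2.

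Without replicate 3 the median SD of the members over the 2 remaining pools was 0.055 on the log2 scale, against 0.11 for all genes. Some members still lay apart, with deviations in replicates 1 and 2 of 0.32 and -0.59 for Scarb2 and 0.30 and -0.56 for Gla. Without replicate 1 the median SD was 0.15 against 0.13, and without replicate 2 it was 0.16 against 0.12, above all genes in both. The difference is a description of these pools, none of the genes lowest in replicate 3 passed the test singly, and with 1 group no condition is attached to the pools. When the median of genes of like level was subtracted, the count was 21 of 35 against 34.8% of all genes, and the members' median deviation in replicate 3 was -0.060. When that of genes of like transcript length was subtracted, the count was 24 of 35 against 34.5% of all genes, and the median deviation was -0.074.

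Marker lists of other cells were set beside the members and differed in their order over the pools. In scaled RPKM the members summed to 1437, 1413 and 1228 in replicates 1, 2 and 3. The 12 pigment epithelium markers, all with a row and none at 0, summed to 577, 496 and 334, and 9 of the 11 tested were lowest in replicate 3. The 9 include pigment genes such as Dct (133, 106 and 56.5) and Pmel (63.7, 47.3 and 19.7). Lrat (3.75, 3.12 and 3.62) was lowest in replicate 2. Rpe65 (6.35, 18.4 and 7.24), a row whose symbol equals another followed by a digit, was lowest in replicate 1. The 8 Muller glia markers summed to 1966, 1851 and 1534, with 4 of 8 lowest in replicate 3 and 4 in replicate 2, and the 10 microglia markers to 28.5, 31.4 and 25.4. The 10 rod markers summed to 12522, 13287 and 12619, with 4 of 10 lowest in replicate 3. Lens markers ran the other way, with 670, 280 and 1919 over 11 genes, all highest in replicate 3. The part of these cells in the members' order was not tested. Among the lists that serve the lysosome, 7 of 16 proton pump genes and 8 of 17 autophagy genes tested were lowest in replicate 3, as were 13 of 31 proteasome genes, shares of 43.8%, 47.1% and 41.9%. Most genes of these lists averaged at least 10 RPKM, and 44.9% of all genes of that level were lowest there. Of the other lysosomal lists, 5 of 7 proteases (71.4%) were lowest there, but 7 of 20 hydrolases (35%) and 5 of 15 membrane genes (33.3%). The share was 5 of 9 (55.6%) for mannose 6-phosphate sorting and 4 of 13 (30.8%) for nutrient sensing, against 35.7% of all genes tested.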

How the data were processed

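RNA of isolated wild-type retina was sequenced in 6 samples, which share 3 tables (15468 rows each, in 1 order). The deposited unit was taken as RPKM from the values, since no header or label names it, and FPKM cannot be told apart. GSNAP, HTSeq and mm9 are named per the submitters' processing notes, with no version, with the authors' filters and annotation not given in the sources used here. Depth is unknown, so no counting interval is given. 3 repeated symbols were kept once. Between replicates, values were divided by factors of 0.984, 1.09 and 0.931 (trimmed mean of log ratios, 30% of them and 5% of the levels trimmed at either end) for the test and for deviations only; levels are as deposited. The pseudocount of 0.1 understates differences of low genes. Variances were tested with limma 3.58.1 (R 4.3.3) and Benjamini-Hochberg adjustment. Transcript lengths and overlaps come from GENCODE M21 and promoters from RefSeq (GRCm38.p6), another build than that of the files, so no coordinate was carried over.

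Members, lists and tests were chosen with earlier results of these data known. All members are named, with every replicate for the 3 highest of each role, and of other lists the 3 highest genes, ratio partners and called genes, some of which are not reported here. Nothing says that pools came from separate litters or days, so p-values measure the spread between these pools only. Alternatives left out each replicate and changed the pseudocount, filter, scaling and prior, or left out rows whose symbol equals another followed by a digit (2656 genes). Protein sequences were not used here.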

Additional observations from a re-analysis of the deposited data

How the results depend on the processing

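Levels, shares and ratios were recomputed with each replicate left out and after multiplication by transcript length. By length the medians became 45.8 RPKM times kb for the 35 members, 112 for proteases, 39.7 for glycosidases, lipases and sulfatases, 68.8 for membrane genes and 43.9 for lipofuscinosis genes, on another scale, and the shares became 35.8% for Ctsd, 55.9% for Psap and 20.3% for Tfeb. The mean over members in place of their median was 39.0 RPKM. Ctsb over Ctsl lay between -0.084 and 0.056 on the log2 scale with a replicate left out and at 1.23 by length. Npc1 over Npc2 lay between -0.093 and 0.16 with a replicate left out and at 0.73 by length, and Psap over Gm2a was 4.66 by length. The ratios other than Ctsb over Ctsl and Npc1 over Npc2 kept their direction under these 4 alternatives. The median SD lay between 0.055 (without replicate 3) and 0.16 with a replicate left out and was 0.24 without scaling. The count of varying members was 0 under 8 alternatives, of which the non-robust prior called no gene at all, and was 1 without digit-extended symbols, where 10474 genes were tested; the cause was not tested. The longer motif gave 5 members in place of 12. The count lowest in replicate 3, with alternatives chosen after seeing the data, was 26 of 35 without scaling, where 54.6% of all genes were lowest there, 22 against 27.4% with scaling on genes of 10 RPKM or more, and 21 to 25 under the other 3. The median deviation of members there lay between -0.21 without scaling, where that of all genes was -0.10, and -0.060. No paired analysis was possible because the samples form 1 group. The unknown depth limits what can be said of low genes such as Gla.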
